A study of Mus musculus with 12 samples.

Results

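To describe how brain gene expression differed between mice with and without chronic unpredictable mild stress (CUMS), the 3 stressed mice on water (MS_W31, MS_W75 and MS_W95) were compared with the 3 unstressed mice on water (C_W1, C_W64 and C_W70). These are 6 of the 12 libraries of the series, chosen by their group labels, and the comparison ran over 21393 of the 55385 genes in the table, those with a mean of at least 0.1 FPKM over the 12 libraries. All mice were wild-type C57BL/6J males, bought at 8 weeks of age. The C_W mice were kept without stressors and given water, and the MS_W mice went through 4 weeks of CUMS, a changing series of mild stressors such as tilted or damp cages, restraint, noise, strobe light and shifted light cycles, with water by gavage. The other 6 libraries, 3 of unstressed (C_O) and 3 of stressed (MS_O) mice given krill oil, entered the fit to share 1 estimate of the spread and served for the test of whether the stress difference depended on the oil. Each mouse was perfused with saline and its brain gave 1 poly(A) RNA library, so the replicates were separate animals. The tissue is labelled brain, and the study's methods state that whole brains were collected. Markers of hindbrain and cerebellum, given below, differed widely between libraries, so equal region content cannot be assumed. FPKM is the number of sequenced fragments of a gene scaled to transcript length and to the mapped fragments of the library, log2FC is the MS_W mean minus the C_W mean of log2(FPKM + 1), which understates the change of genes under about 1 FPKM, and libraries are always given in the order C_W1, C_W64, C_W70 and MS_W31, MS_W75, MS_W95.

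Stress reaches the brain through the hypothalamus, where neurons of the paraventricular nucleus release corticotropin-releasing hormone and vasopressin, and through monoamine neurons of the brainstem that project to cortex, striatum and limbic areas. Neuropeptides are stored in dense-core vesicles and act on G protein-coupled receptors, while fast transmission rests on glutamate and GABA released from synaptic vesicles. Each brain region has its own set of peptides, receptors and transcription factors, so in RNA from mixed tissue a lower value can mean fewer cells of a type or less RNA per cell, and these cannot be told apart here.

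The libraries were checked against markers of brain regions and cell types first. Markers of all neurons summed to 1541 to 1648 FPKM in C_W and to 1348 to 1376 FPKM in MS_W, without overlap. Those of astrocytes summed to 579 to 705 FPKM in 5 of the libraries and to 1447 FPKM in MS_W95. Markers of the hindbrain summed to at most 0.0872 FPKM in 5 of the libraries against 33.8 FPKM in MS_W95, and markers of the cerebellum summed to 44.0 to 54.9 FPKM in 5 of the libraries against 1236 FPKM in MS_W95. The serotonin and noradrenaline neuron markers also reached 42.9 FPKM in MS_W95 and at most 1.21 FPKM in the other 5. Library MS_W95 thus stood apart from MS_W31 and MS_W75, and its median absolute difference in log2(FPKM + 1) was 0.246 and 0.248 from these libraries, against 0.119 between them. Choroid plexus markers varied within both groups, with 853, 5.898 and 63.7 FPKM in C_W and 14.7, 10.2 and 1839.7 FPKM in MS_W. In the krill oil groups C_O72 also stood apart, with 31.3 FPKM of the Purkinje cell gene Pcp2 against at most 0.212 FPKM in the 10 libraries other than C_O72 and MS_W95, and counts are given below with and without these libraries. The estimated counts, which derive from coverage and stand in for depth, summed to 69768244 to 75678721 in the C_W libraries and to 51748181 to 61608502 in the MS_W libraries, so every control library was above every stressed one. The study's methods describe whole brains, but 5 of the libraries had hindbrain marker sums of at most 0.0872 FPKM. Pcp2 was likewise at most 0.212 FPKM outside C_O72 and MS_W95. Whether every library held the same brain regions was not tested. The part of region content and of depth in the differences below was not tested either.

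**Figure D1:**
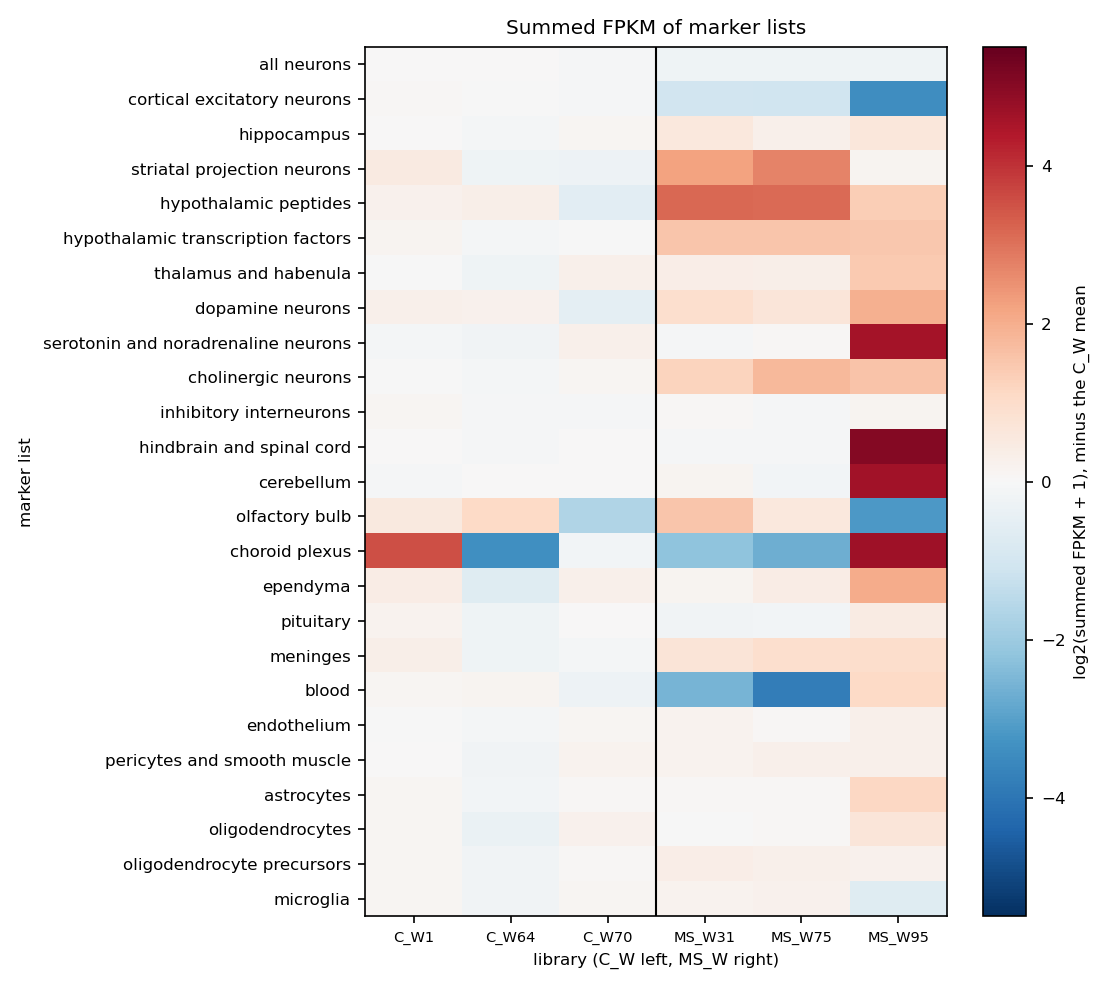
Summed FPKM of 25 marker lists in each library, as log2(summed FPKM + 1) minus the mean of the 3 C_W libraries (colour, red above and blue below that mean). The cortical list is below the C_W mean in all 3 MS_W libraries, the striatal, hypothalamic and cholinergic lists are above it, and the hindbrain, cerebellum and serotonin lists stand out in MS_W95.

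Differentially expressed genes (DEGs) were called at the thresholds of the study but with limma in place of its Ballgown test, as a limma p before adjustment that was under 0.05 together with mean FPKM that differed more than 2-fold between the groups (an absolute log2 ratio above 1), and "rose" and "fell" are used below for genes that met them in MS_W. Each gene's limma p after Benjamini-Hochberg adjustment over all tested genes is given as its adjusted p, and a call by these criteria does not imply one under 0.05. There were 983 DEGs (4.59% of tested genes), of which 534 rose (2.5%) and 449 fell (2.1%). The split depended on the scaling, and 309 of 1026 DEGs rose when libraries were centred on their median and 427 of 994 after quantile normalization. At an unadjusted p under 0.05 there were 2245 genes, and after Benjamini-Hochberg adjustment over all tested genes limma called 1 gene (0.00467%), Doc2b. The median log2FC of all tested genes was 0.062, and it moved by -0.049 under quantile normalization and by -0.088 with centred libraries. In 5252 genes (24.6%) the 3 MS_W values lay all above (3494 genes, 16.3%) or all below (1758 genes, 8.22%) the 3 C_W values, while 2292 lay above and 2552 below with centred libraries, and 2420 and 2431 after quantile normalization. The groups did not overlap for 443 of the 534 genes that rose and for 404 of the 449 that fell. MS_W95 was the library farthest from the controls for 250 of the genes that rose and for 264 of those that fell, and it was beyond every control for 482 and 433 of them. Most DEGs were of low abundance: 210 of those that rose and 177 of those that fell had a mean of at least 1 FPKM over the 6 libraries, and 42 and 45 had at least 10 FPKM. Of those that rose, 63 had a mean under 0.1 FPKM over the 9 libraries outside MS_W and so could be tested only through their MS_W values. Likewise 42 of those that fell had a mean under 0.1 FPKM over the libraries outside C_W and could be tested only through their C_W values. The counts of low-abundance lists below are descriptions.

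**Figure D2:**
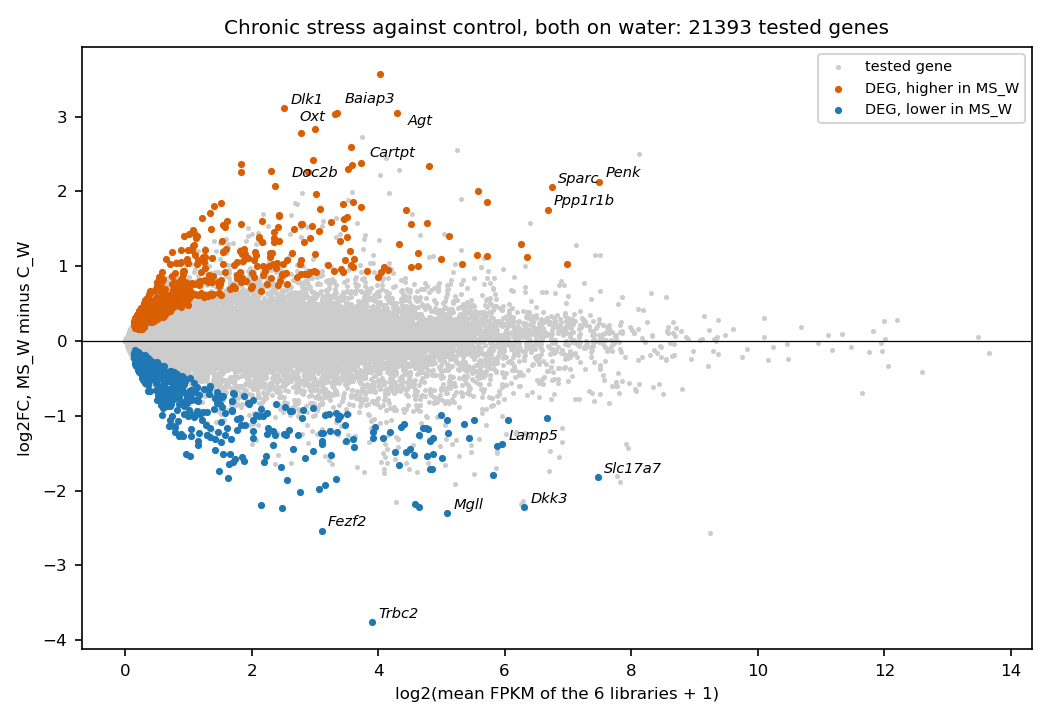
Each point is 1 of the 21393 tested genes, with log2(mean FPKM of the 6 libraries + 1) on the x axis and log2FC (MS_W minus C_W) on the y axis; DEGs that rose are orange and DEGs that fell are blue. Doc2b lies at a log2FC of 2.30, and Trbc2 has the lowest log2FC, -3.75.

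Doc2b encodes a calcium sensor of vesicle release and lies on the minus strand of chr11:75768966-75796049 (mm10, as are all gene positions below). It was at 3.54, 2.87 and 2.24 FPKM in C_W and 16.4, 17.7 and 19.9 FPKM in MS_W, which is 2.88 ± 0.648 against 18.02 ± 1.77 FPKM (mean ± SD, n = 3 each). All 3 stressed mice were above all 3 controls, and MS_W95 did not stand apart from the other stressed mice. The mean was 6.25-fold higher in MS_W, with a log2FC of 2.30, an SE of 0.20 and a limma adjusted p of 0.00542, and without C_O72 and MS_W95 the log2FC was 2.23 with a limma adjusted p of 0.00414. Over the alternatives its limma, edgeR or DESeq2 adjusted p ranged from 4.26e-19 to 0.0555, the latter without MS_W75. In a single-gene exact permutation test 3 mice against 3 cannot reach a two-sided p below 0.1, so the calls of single genes rest on the spread shared over all genes and groups.

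The 12 DEGs with the largest rise, among those with a mean of at least 1 FPKM and groups that do not overlap, included the peptide genes Oxt, Nts and Cartpt and the angiotensin precursor Agt. The largest log2FC among them was that of Dlk1, an imprinted gene for a Notch-related membrane protein at chr12:109452823-109463336, which was at 0.229, 0.2197 and 0.111 FPKM in C_W and 9.46, 9.72 and 8.67 FPKM in MS_W. Its stressed values were all above 8 FPKM and its control values all below 1 FPKM (log2FC 3.12, SE 0.45, adjusted p = 0.0606). Baiap3, a Munc13-family protein of dense-core vesicle traffic at chr17:25242659-25256364, was at 1.49, 1.35 and 0.746 FPKM in C_W and 20.6, 17.4 and 13.4 FPKM in MS_W (log2FC 3.04, SE 0.50, adjusted p = 0.107). Every stressed value of Baiap3 was thus several-fold above every control value. Agt, which encodes angiotensinogen and is made by astrocytes, was at 3.295, 2.93 and 2.03 FPKM in C_W and 20.5, 19.96 and 63.8 FPKM in MS_W (log2FC 3.05, SE 0.94, adjusted p = 0.327), with the high value in MS_W95. In the unstressed mice on krill oil Agt was at 2.20, 6.58 and 75.1 FPKM (C_O15, C_O30 and C_O72), so C_O72 was above every stressed mouse on water. Arhgap36, known as an inhibitor of protein kinase A, was at 0.186, 0.192 and 0.0982 FPKM in C_W and 4.7003, 5.05 and 5.16 FPKM in MS_W (log2FC 2.37, SE 0.50, adjusted p = 0.2103). Its stressed mice lay close together and far above the controls. Nts, the peptide neurotensin, was at 0.507, 0.296 and 1.13 FPKM in C_W and 15.3, 21.9 and 3.02 FPKM in MS_W (log2FC 2.83, SE 0.74, adjusted p = 0.279). Ecel1, a membrane endopeptidase of neurons, was at 0.635, 0.369 and 0.849 FPKM in C_W and 12.9, 15.8 and 4.77 FPKM in MS_W (log2FC 2.78, SE 0.53, adjusted p = 0.159). In both, MS_W95 was the lowest stressed mouse but still above the controls. Syndig1l (log2FC 2.59, adjusted p = 0.0606), Zfp180 (log2FC 2.42, adjusted p = 0.275), AW551984 (log2FC 2.27, adjusted p = 0.133), Cartpt (log2FC 2.38, adjusted p = 0.147) and Oxt (log2FC 3.03, adjusted p = 0.357) completed the 12, and Zfp180 was at 1.304, 1.45 and 1.56 FPKM in C_W and 13.2, 13.4 and 9.94 FPKM in MS_W. On krill oil Zfp180 was at 2.53, 11.7 and 8.24 FPKM in C_O15, C_O30 and C_O72. It was at 1.42, 11.6 and 10.4 FPKM in MS_O13, MS_O46 and MS_O78, so both oil groups held low and high values. Syndig1l was at 8.796 to 11.3 FPKM in C_O and at 11.5 to 20.4 FPKM in MS_O. Its C_O values were all above the highest control on water, 4.56 FPKM, and below the 11.7 FPKM of MS_W95. The cause of these values was not tested. Limma adjusted p-values were 0.0606 for Dlk1 and Syndig1l and between 0.107 and 0.357 for the other 9 besides Doc2b. The call of Oxt was lost without MS_W31 (log2FC 2.49) or MS_W75 (log2FC 2.15), and those of the other 11 were kept without any 1 of the 12 libraries.

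**Figure D3:**
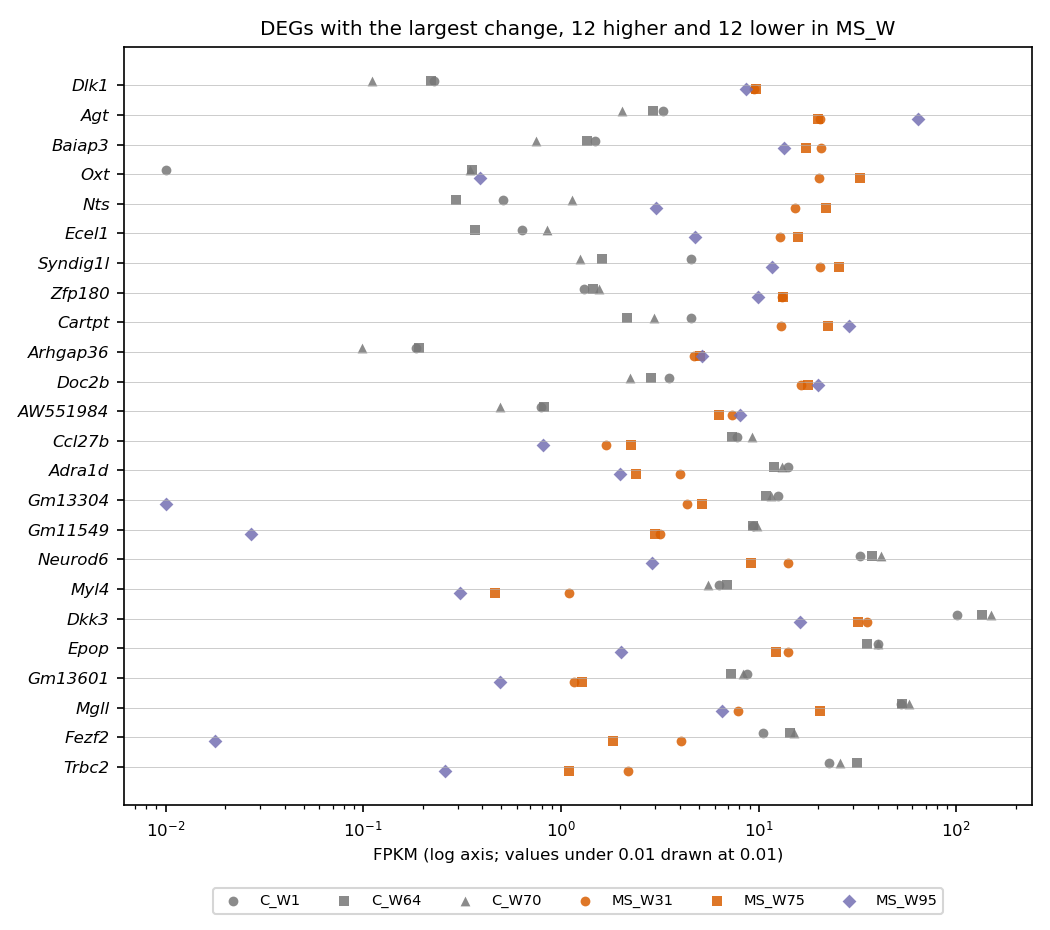
FPKM of the 12 DEGs with the largest rise and the 12 with the largest fall, on a log axis, with 1 point per library (grey for C_W, orange for MS_W31 and MS_W75, purple for MS_W95). The groups do not overlap in any of them by the rule that chose them, and MS_W95 lies far below the other stressed mice for Oxt, Fezf2, Gm11549 and Gm13304.

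Promoters were taken from RefSeq (GRCm38.p6), which holds a window of 250 bases before to 50 after the start for 13044 of the tested genes, and were searched on both strands for the letters of the cAMP response element, TGACGTCA, a site for the transcription factor CREB found in many peptide genes, and of the TATA box, TATAAA, and the matches in Cartpt and Agt do not overlap each other. The cAMP response element letters were found in 3.24% of all these promoters, in 2 of 329 (0.608%) of the DEGs that rose and in 4 of 234 (1.71%) of those that fell. The TATA box letters were found in 9.61% of all, 12.2% of those that rose and 15.8% of those that fell. Of the 12 genes with the largest rise and the 12 with the largest fall, 17 had a window (Syndig1l, Doc2b, Trbc2, Epop, Dkk3, Gm11549 and Adra1d had none), and among these Cartpt holds the cAMP response element letters in its promoter, and Agt and Ccl27b the TATA box letters. Ccl27b has several windows, and its match lies on the opposite strand at chr4:42653659-42653908. The window before its listed start, chr4:42655001-42655250, holds no match. The 250 bases before the start are shown for Cartpt, a peptide that rose, and Agt, the gene with the largest stressed value of the 12, 5′ to 3′ on the minus strand, with the matched letters in capitals.
Cartpt, chr13:99900684-99900933, cAMP response element at base 139: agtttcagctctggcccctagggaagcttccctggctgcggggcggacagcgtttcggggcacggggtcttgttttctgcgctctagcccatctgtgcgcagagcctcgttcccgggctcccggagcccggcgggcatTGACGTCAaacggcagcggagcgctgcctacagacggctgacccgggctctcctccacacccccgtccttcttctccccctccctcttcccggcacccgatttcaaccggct
Agt, chr8:124569707-124569956, TATA box at base 221: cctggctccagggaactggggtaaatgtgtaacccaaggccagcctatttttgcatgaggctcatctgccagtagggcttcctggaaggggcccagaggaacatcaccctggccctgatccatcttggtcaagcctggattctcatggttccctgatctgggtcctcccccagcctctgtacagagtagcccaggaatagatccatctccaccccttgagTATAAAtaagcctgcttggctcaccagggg
A match describes these letters and does not show that a factor bound there.

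The 12 DEGs with the largest fall, by the same rule, included a T cell receptor segment, transcription factors of cortical neurons and an adrenergic receptor. Trbc2, the constant segment of the T cell receptor beta chain at chr6:41546730-41548352, was at 22.8, 31.4 and 25.8 FPKM in C_W and 2.18, 1.09 and 0.2596 FPKM in MS_W (log2FC -3.75, SE 1.14, adjusted p = 0.326). The controls were all above 22 FPKM and the stressed mice all below 3 FPKM, with the caution that the near-identical Trbc1 can share its reads. Fezf2, the transcription factor of deep-layer subcortical projection neurons, was at 10.5, 14.4 and 15.05 FPKM in C_W and 4.05, 1.83 and 0.0177 FPKM in MS_W (log2FC -2.54, SE 0.96, adjusted p = 0.412). Neurod6, a transcription factor of cortical pyramidal neurons, was at 32.6, 37.4 and 41.8 FPKM in C_W and 14.1, 9.15 and 2.895 FPKM in MS_W (log2FC -2.18, SE 0.85, adjusted p = 0.425). Both were lowest in MS_W95. Mgll, the lipase that breaks down the endocannabinoid 2-arachidonoylglycerol, was at 52.6, 53.5 and 57.98 FPKM in C_W and 7.86, 20.4 and 6.54 FPKM in MS_W (log2FC -2.30, SE 0.64, adjusted p = 0.289). Its controls lay close together and all its stressed values were at most 20.4 FPKM. Dkk3, a secreted protein of the Dickkopf family, was at 101, 135 and 149 FPKM in C_W and 35.4, 31.99 and 16.1 FPKM in MS_W (log2FC -2.22, SE 0.65, adjusted p = 0.313), Epop, a partner of the PRC2 complex, was at 40.1, 35.2 and 40.3 FPKM in C_W and 14.1, 12.2 and 2.01 FPKM in MS_W (log2FC -2.22, SE 0.89, adjusted p = 0.436). Adra1d, the alpha-1D adrenergic receptor, was at 14.01, 12.02 and 13.2 FPKM in C_W and 4.01, 2.41 and 1.99 FPKM in MS_W (log2FC -1.92, SE 0.55, adjusted p = 0.306). In these genes every stressed mouse was below every control. Myl4, Gm13601, Gm11549, Gm13304 and Ccl27b made up the rest, with log2FC from -2.23 (Gm13601) to -1.86 (Ccl27b), and Gm13304 and Ccl27b lie among near-identical gene copies on chromosome 4, so their values are uncertain. Without MS_W95 the calls were lost for Fezf2 (log2FC -1.91), Neurod6 (log2FC -1.62), Epop (log2FC -1.48), Gm13601 (log2FC -2.04), Gm11549 (log2FC -1.36), Gm13304 (log2FC -1.14) and Ccl27b (log2FC -1.62). Fezf2 and Neurod6 also lost the call without C_W64 (log2FC -2.48 and -2.17) or C_W70 (log2FC -2.45 and -2.09), Epop (log2FC -2.29 to -2.19), Gm11549 (log2FC -2.04 to -2.005) and Gm13304 (log2FC -2.02 to -1.93) also lost it without each single control, and Gm13304 without C_O15, C_O30, C_O72 or MS_O78, while Trbc2, Mgll, Dkk3, Myl4 and Adra1d kept theirs without any 1 library.

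The cortical excitatory neuron list as a whole was lower in stressed mice, and 5 of its 15 genes fell (33.3%, against 2.1% of all genes) and 0 rose, with a median log2FC of -1.38 against 0.062 for all genes. Its summed FPKM was 1867, 1733 and 1682 FPKM in C_W and 837, 811 and 162 FPKM in MS_W, so every stressed library was at less than the lowest control and MS_W95 was the lowest. Nrgn, a calmodulin-binding protein of forebrain neurons that was no DEG and was singled out after its values were seen, made up 51.1% to 56.7% of the control sums, and without it the sums were 808, 832 and 822 FPKM in C_W and 434, 431 and 138 FPKM in MS_W. Slc17a7, the vesicular glutamate transporter of cortical and hippocampal neurons, was at 270.0, 290.3 and 254 FPKM in C_W and 106, 100.1 and 41.5 FPKM in MS_W (log2FC -1.82, SE 0.71, adjusted p = 0.425). Lamp5, a marker of upper cortical layers and of a class of interneurons, was at 94.5, 79.9 and 92.9 FPKM in C_W and 32.99, 37.9 and 30.4 FPKM in MS_W (log2FC -1.38, SE 0.31, adjusted p = 0.223). Rorb, a layer 4 transcription factor, was at 3.87, 2.83 and 2.54 FPKM in C_W and 1.398, 1.71 and 0.915 FPKM in MS_W (log2FC -0.80, SE 0.27, adjusted p = 0.3596). The groups did not overlap for any of these genes. Tbr1, a deep-layer transcription factor, did not pass (adjusted p = 0.702), and its groups overlapped. All 3 MS_W libraries lay below the controls for 11 of the 15 genes, against 8.22% of all genes. The 5 calls became 2 without C_W64, C_W70 or MS_W95 and 9 without C_O72, and Slc17a7 lost its call without MS_W95 (log2FC -1.39) and without each single control (log2FC -1.86 to -1.77). Rorb lost it without MS_W95 (log2FC -0.67) or C_W1 (log2FC -0.67), whereas Lamp5 kept it throughout. Without C_O72 and MS_W95 the list had a median log2FC of -0.89 and 7 genes fell. Pan-neuronal markers were not called, with a median log2FC of -0.11. However, 4 of the 10 lay below the controls in every stressed mouse, against 8.22% of all genes. Snap25, the synaptic SNARE protein, was at 413, 421 and 409.7 FPKM in C_W and 242, 262 and 339 FPKM in MS_W (log2FC -0.57, SE 0.18, adjusted p = 0.352), a difference under the fold criterion.

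Genes of striatal projection neurons, the GABA neurons of the basal ganglia that answer to dopamine, were higher in 2 of the 3 stressed mice. Of 17 genes 7 rose (41.2%, against 2.5% of all genes) and 0 fell, the median log2FC was 1.64, and the sums were 276, 168 and 163 FPKM in C_W and 916, 1304 and 219 FPKM in MS_W. MS_W31 and MS_W75 were thus several-fold above every control, and MS_W95 lay within the control range. Penk, the enkephalin precursor, was at 79.1, 51.7 and 38.8 FPKM in C_W and 349, 468 and 84.9 FPKM in MS_W (log2FC 2.13, SE 0.55, adjusted p = 0.278). Ppp1r1b, the dopamine-regulated phosphatase inhibitor DARPP-32, was at 59.9, 33.1 and 30.004 FPKM in C_W and 170.1, 261 and 54.4 FPKM in MS_W (log2FC 1.76, SE 0.61, adjusted p = 0.366). Drd2, the D2 dopamine receptor, was at 4.35, 0.602 and 1.87 FPKM in C_W and 24.4, 32.2 and 2.896 FPKM in MS_W (log2FC 2.35, SE 0.80, adjusted p = 0.358). Tac1, the substance P precursor, was at 4.73, 2.65 and 4.83 FPKM in C_W and 19.6, 36.5 and 5.59 FPKM in MS_W (log2FC 1.80, SE 0.61, adjusted p = 0.358). The groups overlapped for Ppp1r1b and Drd2 through MS_W95 and did not for Penk and Tac1, where MS_W95 was the stressed mouse nearest to the controls. Drd1 (log2FC 0.996, adjusted p = 0.7402) and Adora2a (log2FC 1.89, adjusted p = 0.559) did not pass, and in both MS_W95 was below every control. The count of 7 became 15 without MS_W95 and 17 of 17 without C_O72 and MS_W95 (median log2FC 2.57), and it fell to 3 without MS_W31 and 2 without MS_W75. Among the named genes, calls were lost without MS_W75 for Tac1 (log2FC 1.23), Ppp1r1b (log2FC 1.28) and Drd2 (log2FC 1.78), without MS_W31 for Ppp1r1b (log2FC 1.59) and Drd2 (log2FC 1.97), without C_W70 for Ppp1r1b (log2FC 1.57) and without C_W64 for Drd2 (log2FC 1.92).

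Hypothalamic peptide genes also rose, 7 of the 13 tested (53.8%, against 2.5% of all genes), while 1 fell, and the median log2FC was 1.01. Avp, the vasopressin precursor that acts with corticotropin-releasing hormone on the pituitary, was at 0.0001, 0.0001 and 0.435 FPKM in C_W and 32.3, 59.3 and 0.185 FPKM in MS_W (log2FC 3.57, SE 1.20, adjusted p = 0.358). Oxt, the oxytocin precursor, was at 0.0001, 0.353 and 0.347 FPKM in C_W and 20.2, 32.7 and 0.392 FPKM in MS_W (log2FC 3.03, SE 1.01, adjusted p = 0.357). Both were high in MS_W31 and MS_W75 and at or near the control level in MS_W95, where Avp lay within the control range; 0.0001 is the lowest value in the table, in place of 0, and a log2FC against it rests on the pseudocount. Hcrt, the wake-promoting orexin precursor, was listed at 0.0001 in all 3 controls and was at 5.601, 0.858 and 0.144 FPKM in MS_W (log2FC 1.27, SE 0.47, adjusted p = 0.401), and it could be tested only through those values. Cartpt, whose peptide acts on feeding and reward, was at 4.55, 2.17 and 2.95 FPKM in C_W and 12.97, 22.4 and 28.8 FPKM in MS_W (log2FC 2.38, SE 0.44, adjusted p = 0.147). Gal, the peptide galanin, was at 1.24, 1.76 and 0.207 FPKM in C_W and 7.46, 6.47 and 7.804 FPKM in MS_W (log2FC 2.07, SE 0.83, adjusted p = 0.437). Unlike Avp and Oxt, Cartpt and Gal were at their highest of the 6 libraries in MS_W95. On krill oil the unstressed C_O72 was at 12.1 FPKM of Gal, above every MS_W mouse, and C_O15 and C_O30 were at 0.0001 and 1.43 FPKM. Kiss1, the gene for kisspeptin and the 1 member that fell, named after its values were seen, was at 0.574, 0.409 and 0.607 FPKM in C_W and 0.0001, 0.0001 and 0.0694 FPKM in MS_W (log2FC -0.58, SE 0.18, adjusted p = 0.325). Pmch, the melanin-concentrating hormone precursor, reached 34.0 FPKM in MS_W31 but 0.8797 and 0.359 FPKM in the other stressed mice and did not pass (adjusted p = 0.489). The summed FPKM of the list was 20.1, 20.8 and 10.9 FPKM in C_W and 154, 151 and 44.4 FPKM in MS_W. The 8 calls became 3 without MS_W31, 5 without MS_W75 and 9 without C_O72 and MS_W95, and Avp lost its call without MS_W31 (log2FC 2.91) or MS_W75 (log2FC 2.48). Gal lost it without C_W1, C_W70 or any 1 of the stressed mice (log2FC 1.73 to 2.17).

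Transcription factors that mark the hypothalamus were near the limit of detection in the controls, and 6 of the 13 on the list could be tested. Nkx2-1, which specifies the ventral hypothalamus and basal forebrain, was at 0.05404, 0.0001 and 0.0469 FPKM in C_W and 1.37, 1.59 and 0.0001 FPKM in MS_W (log2FC 0.83, SE 0.28, adjusted p = 0.3596). Otp, needed for neuroendocrine neurons of the paraventricular nucleus, was at 0.0152, 0.03195 and 0.0001 FPKM in C_W and 1.56, 1.36 and 1.07 FPKM in MS_W (log2FC 1.19, SE 0.42, adjusted p = 0.376). Fezf1, of the ventromedial hypothalamus, was at 0.0323, 0.0001 and 0.0001 FPKM in C_W and 0.821, 0.694 and 0.0001 FPKM in MS_W (log2FC 0.53, SE 0.18, adjusted p = 0.357). All 3 met the criteria, but Nkx2-1 and Fezf1 reached the mean of 0.1 FPKM needed for the test only through their MS_W values, so their direction was fixed by that filter. MS_W95 was at 0.0001 for both, and these calls were lost without MS_W31 (log2FC 0.64 and 0.36) or MS_W75 (log2FC 0.58 and 0.42), when the list had 2 and 1 calls. Cholinergic neuron genes gave the highest share of calls, with 7 of 8 that rose (87.5%, against 2.5% of all genes), 0 that fell and a median log2FC of 1.42. Chat, the acetylcholine synthesis enzyme, was at 0.2201, 0.0604 and 0.1296 FPKM in C_W and 2.099, 2.75 and 1.53 FPKM in MS_W (log2FC 1.44, SE 0.32, adjusted p = 0.223). Slc18a3, the vesicular acetylcholine transporter, was at 0.206, 0.0987 and 0.2301 FPKM in C_W and 1.85, 3.66 and 3.26 FPKM in MS_W (log2FC 1.71, SE 0.68, adjusted p = 0.431). Slc5a7, the choline transporter, was at 0.234, 0.104 and 0.307 FPKM in C_W and 1.92, 2.49 and 2.05 FPKM in MS_W (log2FC 1.38, SE 0.43, adjusted p = 0.335). In all 3 genes the controls were at or below 0.307 FPKM and the stressed mice at or above 1.53 FPKM, MS_W95 included. On krill oil the unstressed C_O72 was above every MS_W mouse in these genes, at 3.26, 11.9 and 4.65 FPKM. C_O15 and C_O30 were at or below 0.79 FPKM. Slc10a4, an orphan carrier of cholinergic and monoamine vesicles, was at 0.218, 0.0679 and 0.404 FPKM in C_W and 4.497, 5.6996 and 4.44 FPKM in MS_W (log2FC 2.26, SE 0.41, adjusted p = 0.133). It was at 0.731, 1.38 and 6.14 FPKM in C_O15, C_O30 and C_O72. Lhx8, a basal forebrain cholinergic transcription factor, was at 0.0173, 0.0001 and 0.0869 FPKM in C_W and 3.08, 3.99 and 0.0001 FPKM in MS_W (log2FC 1.40, SE 0.48, adjusted p = 0.3596), which puts MS_W95 among the controls for Lhx8. The 7 calls became 4 without MS_W75, Slc18a3 lost its call without each single control or MS_W95 (log2FC 1.63 to 1.74) and without MS_W75 (log2FC 1.57), and Lhx8 without MS_W31 (log2FC 1.11) or MS_W75 (log2FC 0.97). Without C_O72 and MS_W95, 7 rose and the median log2FC was 1.61.

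The other neuron marker lists had at most 2 calls each with all libraries. The shares that rose were 8.33% of interneuron, 16.7% of thalamus and habenula and 10% of dopamine neuron genes, against 2.5% of all genes. Gad2, the GABA synthesis enzyme of nerve terminals, rose from 25.8, 24.8 and 23.6 FPKM in C_W to 60.4, 66.99 and 33.3 FPKM in MS_W (log2FC 1.02, SE 0.24, adjusted p = 0.252) as the 1 gene called of the 12 on the interneuron list, and without MS_W75 its fold fell under the criterion (log2FC 0.84). It is not particular to interneurons, since the striatal projection neurons are GABA neurons too. The interneuron list had a median log2FC of -0.049. All stressed mice lay below all controls in 3 of its 12 genes and above them in 2 (8.22% and 16.3% of all genes). Gad1 was at 86.2, 75.4 and 48.6 FPKM in C_W and 106, 97.6 and 68.7 FPKM in MS_W and did not pass (adjusted p = 0.702). Of the thalamus and habenula genes 2 of 12 rose, Tcf7l2 at 0.363, 0.177 and 0.295 FPKM in C_W and 0.643, 0.817 and 1.84 FPKM in MS_W (log2FC 0.68, SE 0.18, adjusted p = 0.285) and Gbx2 at 0.0192, 0.0433 and 0.0612 FPKM in C_W and 0.537, 0.977 and 0.922 FPKM in MS_W (log2FC 0.79, SE 0.25, adjusted p = 0.354), both transcription factors of the thalamus. Of the dopamine neuron genes 1 of 10 rose, Ddc, the decarboxylase of dopamine and serotonin synthesis, at 1.14, 1.55 and 1.37 FPKM in C_W and 2.73, 3.19 and 8.81 FPKM in MS_W (log2FC 1.19, SE 0.44, adjusted p = 0.396), with the high value in MS_W95 and no call without that library (log2FC 0.75) or C_W1 (log2FC 1.12). Th, the rate-limiting enzyme of dopamine synthesis, was at 11.1, 12.8 and 2.09 FPKM in C_W and 21.2, 12.5 and 8.66 FPKM in MS_W and its groups overlapped (adjusted p = 0.693). The serotonin and noradrenaline, hindbrain, cerebellum, olfactory bulb, hippocampus and pituitary lists held no DEG. For the cerebellum the median log2FC was 1.43 with all libraries and 0.06 without C_O72 and MS_W95, Pcp2, a Purkinje cell gene, was at 0.1003, 0.0622 and 0.09603 FPKM in C_W and 0.121, 0.144 and 114 FPKM in MS_W, and 4 cerebellar genes were called without MS_W75 and 1 without C_O72. The interneuron count became 4 without C_O72, 2 without C_O15, C_W1 or MS_W95 and 0 without MS_W75, and the dopamine count 2 without C_O72, MS_W31 or MS_W75. The single calls of the hippocampus without C_W70 and of the serotonin list without MS_W31 were added by 1 left-out library, and the thalamus and habenula count became 3 without C_O72 or MS_W75.

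The glial, vascular, meninges, ependyma, choroid plexus and blood lists had at most 2 calls each with all libraries. The shares that rose were 6.67% of astrocyte, 16.7% of meninges and 7.14% of choroid plexus genes, against 2.5% of all genes. Among 15 astrocyte genes Agt rose and Gfap, the astrocyte intermediate filament, was at 29.9, 20.2 and 25.4 FPKM in C_W and 38.3, 37.8 and 53.8 FPKM in MS_W without passing (adjusted p = 0.574), and 7 of the 15 were above the controls in every stressed mouse (46.7%, against 16.3% of all genes). With all libraries, no oligodendrocyte (15 tested), oligodendrocyte precursor (7), microglia (15), endothelium (13), pericyte and smooth muscle (10) or ependyma (7) gene was called, and for microglia the median log2FC was -0.0073, with Cx3cr1, the fractalkine receptor, at 1.12, 1.02 and 1.07 FPKM in C_W and 2.18, 1.29 and 0.573 FPKM in MS_W. In these lists 2 ependyma genes were called without C_O72 or MS_W31 and 1 without MS_W75, and 1 precursor gene without C_O72 and MS_W95. The astrocyte count became 2 without C_O72. The meninges list had 2 of 12 genes that rose, the fibrillar collagens Col1a1, at 0.607, 1.22 and 0.738 FPKM in C_W and 2.21, 2.36 and 2.55 FPKM in MS_W (log2FC 0.87, SE 0.18, adjusted p = 0.184), and Col3a1, at 0.119, 0.258 and 0.181 FPKM in C_W and 0.682, 0.494 and 0.606 FPKM in MS_W (log2FC 0.43, SE 0.11, adjusted p = 0.275). In the choroid plexus list Prlr, the prolactin receptor, rose (log2FC 0.35, SE 0.092, adjusted p = 0.281) at under 0.5 FPKM in every library, a gene that could be tested only through its MS_W values, while Ttr ranged from 1.88 to 827 FPKM within C_W and from 2.16 to 1784 FPKM within MS_W. Globin transcripts, a sign of blood left after perfusion, were called for 0 of 5 erythroid genes with all libraries, with sums of 209, 213 and 159 FPKM in C_W and 31.3, 12.7 and 412 FPKM in MS_W. MS_W31 and MS_W75 were below and MS_W95 above every control, so that 5 of 5 fell (median log2FC -2.99) once MS_W95 was left out, alone or with C_O72.

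**Figure D4:**
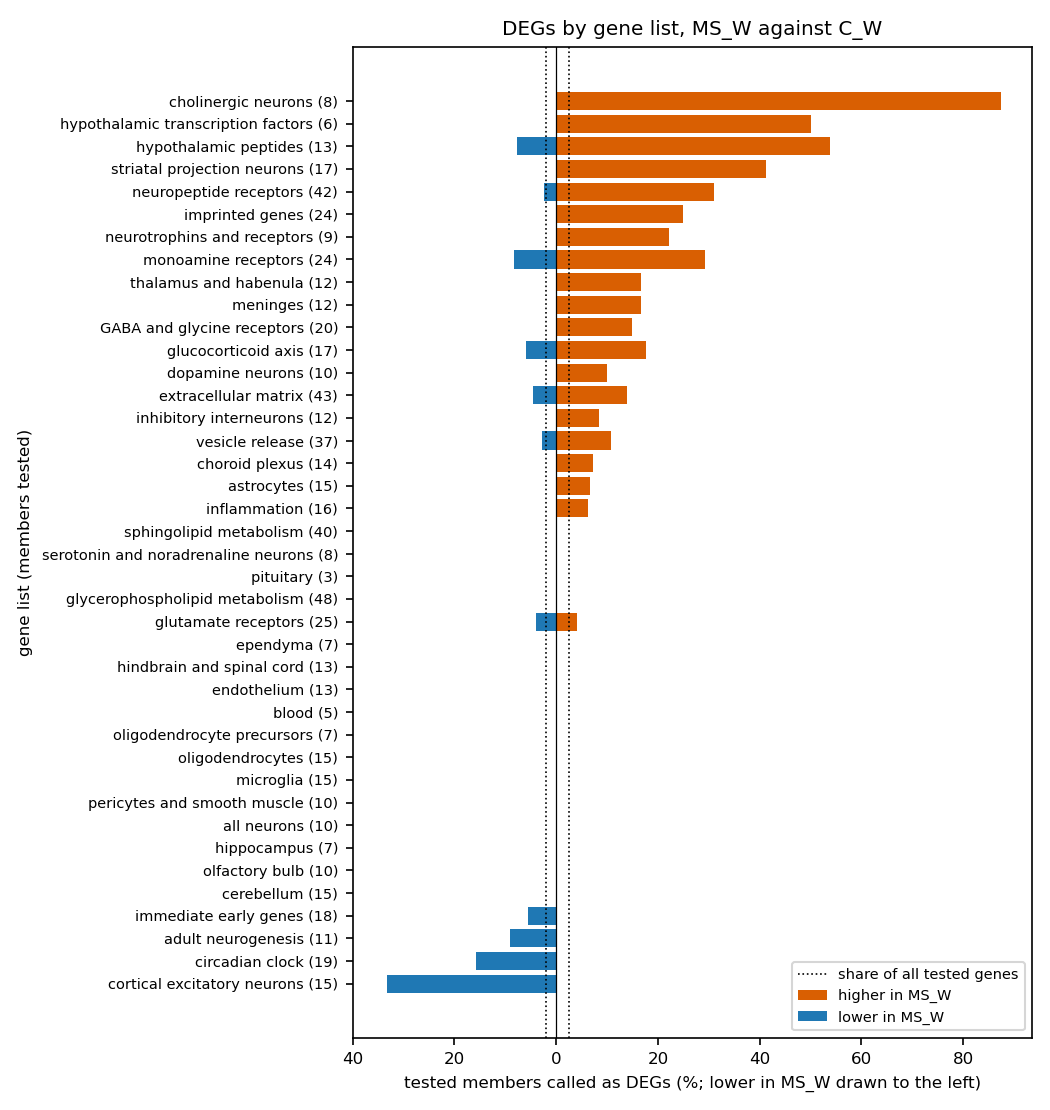
Share of the tested genes of each of the 40 lists that rose (orange, to the right) or fell (blue, to the left), in percent; dotted lines mark the shares of all tested genes, 2.5% and 2.1%, and the number of tested genes is in brackets. The cholinergic, hypothalamic and striatal lists reach furthest to the right and the cortical list furthest to the left. The hypothalamic transcription factor bar rests on 6 tested genes, and 2 of the 3 that rose could be tested only through their MS_W values.

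The corticotropin and glucocorticoid axis is the endocrine arm of the stress response. Of 17 tested genes 3 rose (17.6%, against 2.5% of all genes) and 1 fell (5.88%, against 2.1%). The median log2FC was 0.0077. Crh, the corticotropin-releasing hormone, was at 4.67, 3.05 and 3.23 FPKM in C_W and 4.61, 4.63 and 2.12 FPKM in MS_W (log2FC 0.0077, SE 0.31, adjusted p = 0.995), and its groups overlapped. Crhr1, its main receptor, was at 13.3, 14.3 and 10.7 FPKM in C_W and 9.96, 7.67 and 22.1 FPKM in MS_W (adjusted p = 0.947). The glucocorticoid receptor target Zbtb16 fell from 3.93, 5.96 and 7.95 FPKM in C_W to 1.77, 1.03 and 0.893 FPKM in MS_W (log2FC -1.62, SE 0.33, adjusted p = 0.185), with no overlap and no loss of the call without any 1 library. The genes that rose were of low abundance: Avpr1a, the brain vasopressin receptor, was at 0.07396, 0.164 and 0.113 FPKM in C_W and 0.605, 0.362 and 0.331 FPKM in MS_W (log2FC 0.35, SE 0.13, adjusted p = 0.391), Crhr2, the receptor of urocortins, was at 0.171, 0.0685 and 0.194 FPKM in C_W and 0.383, 0.397 and 0.3805 FPKM in MS_W (log2FC 0.28, SE 0.094, adjusted p = 0.358), and Ucn3, a urocortin, was listed at 0.0001 in the controls and in MS_W95 and was at 1.09 and 0.8604 FPKM in MS_W31 and MS_W75 (log2FC 0.65, SE 0.21, adjusted p = 0.353) and could be tested only through these. Avpr1a lost its call without C_W1 (log2FC 0.33) or MS_W31 (log2FC 0.27), and Crhr2 without C_W64 (log2FC 0.23) and with centred libraries. Among 18 immediate early genes, the transcripts that follow neuronal activity within minutes, 1 fell (5.56%, against 2.1% of all genes) and 0 rose. Their median log2FC was -0.64, and it was -0.21 without C_O72 and MS_W95. Arc, a regulator of AMPA receptor traffic, was at 64.5, 98.4 and 85.8 FPKM in C_W and 38.8, 36.96 and 7.901 FPKM in MS_W (log2FC -1.80, SE 0.76, adjusted p = 0.456), with the low value in MS_W95 and no call without that library (log2FC -1.09) or without any single control (log2FC -1.97 to -1.66). The list had 3 calls without MS_W31 and 2 without C_O15, C_O72 or MS_W75. Fos was at 13.5, 25.2 and 14.8 FPKM in C_W and 14.2, 15.5 and 10.2 FPKM in MS_W (adjusted p = 0.636), and its groups overlapped.

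Of the 42 neuropeptide receptors tested 13 rose (30.95%, against 2.5% of all genes) and 1 fell, and the median log2FC was 0.21. Of the 13, 5 (Galr1, Sstr5, Cckar, Calcr and Prlhr) could be tested only through their MS_W values, and among genes with a mean of at least 1 FPKM the list had 2 calls and a median log2FC of -0.046. Tacr3, the neurokinin B receptor, was at 0.265, 0.1302 and 0.181 FPKM in C_W and 1.34, 2.297 and 1.76 FPKM in MS_W (log2FC 1.22, SE 0.21, adjusted p = 0.125). Tacr1, the substance P receptor, was at 0.876, 0.782 and 0.219 FPKM in C_W and 3.198, 3.17 and 1.36 FPKM in MS_W (log2FC 1.11, SE 0.30, adjusted p = 0.285). Npy2r, a presynaptic neuropeptide Y receptor, was at 0.597, 0.469 and 0.674 FPKM in C_W and 2.72, 2.81 and 1.12 FPKM in MS_W (log2FC 0.98, SE 0.27, adjusted p = 0.291). All stressed mice were above all controls in these genes, with MS_W95 the lowest stressed mouse for Tacr1 and Npy2r. Oprk1, the kappa opioid receptor, was at 0.116, 0.3902 and 0.235 FPKM in C_W and 1.76, 2.36 and 0.101 FPKM in MS_W (log2FC 0.80, SE 0.35, adjusted p = 0.465), with MS_W95 below every control, and its call was lost without any 1 of the controls, MS_W31 or MS_W75 (log2FC 0.49 to 0.89), or of C_O72 and the 3 MS_O libraries. Trhr, the thyrotropin-releasing hormone receptor, was at 0.408, 0.336 and 0.382 FPKM in C_W and 1.37, 0.6902 and 0.591 FPKM in MS_W (log2FC 0.43, SE 0.14, adjusted p = 0.357), and without MS_W31 its fold fell under the criterion (log2FC 0.25). Mc3r, a melanocortin receptor, was called (log2FC 0.37, SE 0.14, adjusted p = 0.418) at under 0.7 FPKM, and lost the call without MS_W31 or MS_W75 (log2FC 0.30 and 0.26) and without C_W1 or C_W64 (log2FC 0.35 and 0.35). Calcr, the calcitonin and amylin receptor, singled out after its values were seen, was listed at 0.0001 in the controls and was at 1.297, 1.29 and 0.836 FPKM in MS_W (log2FC 1.09, SE 0.16, adjusted p = 0.0606). Called receptors ranged in log2FC from -0.52 (Rxfp1, the relaxin receptor, the 1 that fell, also named after its values were seen) to 1.22 (Tacr3).

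Monoamine receptors moved in both directions, and 7 of 24 rose (29.2%, against 2.5% of all genes) and 2 fell (8.33%, against 2.1%). Htr2c, the serotonin receptor 2C, was at 2.62, 1.72 and 3.15 FPKM in C_W and 9.23, 11.3 and 7.53 FPKM in MS_W (log2FC 1.57, SE 0.39, adjusted p = 0.275). Htr1b, a presynaptic serotonin autoreceptor, was at 1.97, 1.92 and 2.07 FPKM in C_W and 5.27, 5.71 and 4.13 FPKM in MS_W (log2FC 1.01, SE 0.20, adjusted p = 0.167), and its controls differed by less than 0.2 FPKM. Every stressed mouse was above every control for both receptors. Adra2a, the alpha-2A adrenergic autoreceptor, rose from 3.04, 2.58 and 0.918 FPKM in C_W to 6.19, 5.36 and 5.27 FPKM in MS_W (log2FC 1.12, SE 0.33, adjusted p = 0.308), and without C_W70 its fold fell under the criterion (log2FC 0.79). By contrast the alpha-1 receptors fell, Adra1d as given above and Adra1b at 5.84, 7.005 and 6.68 FPKM in C_W and 3.34, 3.08 and 2.797 FPKM in MS_W (log2FC -0.88, SE 0.26, adjusted p = 0.318). Htr1d, another presynaptic serotonin receptor, was called (log2FC 0.94, SE 0.42, adjusted p = 0.472), but MS_W95 lay among the controls and the call was lost without MS_W31 (log2FC 0.74), MS_W75 (log2FC 0.72), each single control (log2FC 0.86 to 0.99), C_O15, C_O72 or MS_O13. Htr1a, the main serotonin autoreceptor, was at 3.65, 4.87 and 3.57 FPKM in C_W and 5.01, 3.88 and 2.99 FPKM in MS_W (adjusted p = 0.964). Without C_O72 and MS_W95, 10 rose and 2 fell.

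**Figure D5:**
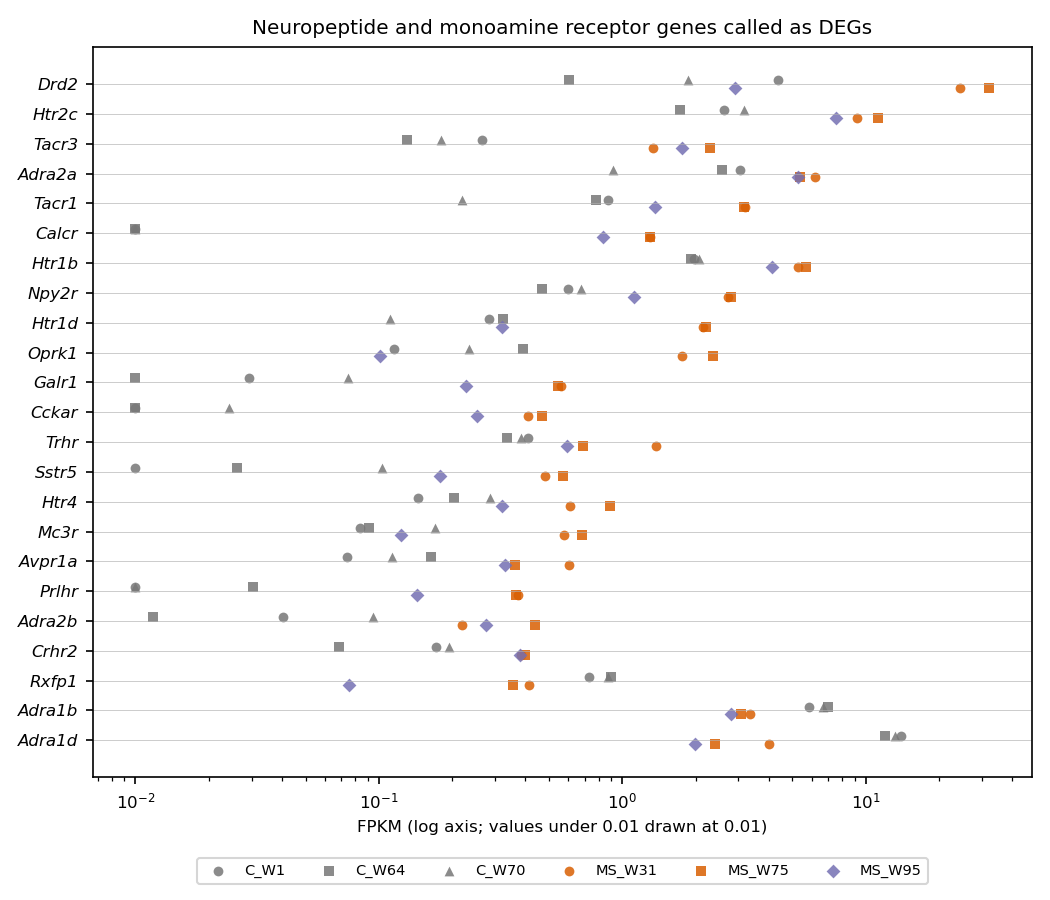
FPKM of the neuropeptide and monoamine receptor genes called as DEGs, on a log axis, ordered by log2FC, with 1 point per library (grey for C_W, orange for MS_W31 and MS_W75, purple for MS_W95; values under 0.01 are drawn at 0.01). Rxfp1, Adra1b and Adra1d fell and the others rose, and MS_W95 lies within the control range for Drd2, Htr1d and Mc3r and below it for Oprk1.

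Receptors of fast transmitters gave fewer calls than neuropeptide and monoamine receptors. Among 25 glutamate receptor genes 1 rose and 1 fell (4% each, against 2.5% and 2.1% of all genes). Among 20 GABA and glycine receptor genes 3 rose (15%, against 2.5% of all genes). Grm2, a presynaptic group II receptor and the one that fell, was at 15.4, 16.1 and 11.1 FPKM in C_W and 8.51, 5.77 and 4.02 FPKM in MS_W (log2FC -1.13, SE 0.44, adjusted p = 0.426). Its call was lost without MS_W95 (log2FC -0.91) or without MS_W75, C_W1 or C_W64 (log2FC -1.12 to -1.04), while the list had 4 calls without MS_W31. Gabrq, the theta subunit of GABA-A receptors, was at 0.179, 0.171 and 0.0247 FPKM in C_W and 2.64, 2.44 and 2.47 FPKM in MS_W (log2FC 1.65, SE 0.29, adjusted p = 0.125). Gabre, the epsilon subunit, was at 0.0259, 0.0402 and 0.0276 FPKM in C_W and 1.33, 0.873 and 0.709 FPKM in MS_W (log2FC 0.92, SE 0.17, adjusted p = 0.133). Both are rare subunits known from hypothalamus and brainstem, both were under 0.2 FPKM in every control and above 0.7 FPKM in every stressed mouse, and both kept the call without any 1 library. Gria1, an AMPA receptor subunit, was at 51.8, 60.7 and 51.4 FPKM in C_W and 83.3, 73.7 and 74.4 FPKM in MS_W (adjusted p = 0.443). The third riser of the GABA and glycine receptor list, the glycine receptor subunit Glra3, was at 0.348, 0.374 and 0.523 FPKM in C_W and 0.963, 1.09 and 0.576 FPKM in MS_W (log2FC 0.40, SE 0.13, adjusted p = 0.352) and was under the fold criterion without C_W1 or MS_W75 and after quantile normalization or centring.

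Of the 9 neurotrophin and receptor genes 2 rose (22.2%, against 2.5% of all genes) and 0 fell. Ngfr, the low-affinity neurotrophin receptor that the cholinergic list also holds, was at 0.482, 0.495 and 0.457 FPKM in C_W and 3.68, 4.0997 and 2.43 FPKM in MS_W (log2FC 1.55, SE 0.46, adjusted p = 0.318). Stressed and control mice on water did not overlap for Ngfr, and its call held without any 1 library. On krill oil the unstressed C_O72 was at 5.24 FPKM of Ngfr, above every MS_W mouse, and C_O15 and C_O30 were at 0.411 and 0.607 FPKM. The list had 7 genes that were not called, among them Bdnf, at 2.14, 2.42 and 3.02 FPKM in C_W and 2.34, 1.94 and 1.63 FPKM in MS_W (log2FC -0.25, SE 0.26, adjusted p = 0.725), and Ntrk2, the receptor of its product, named after its values were seen, at 31.8, 29.8 and 29.1 FPKM in C_W and 34.4, 33.1 and 28.8 FPKM in MS_W (adjusted p = 0.778). Among 37 vesicle release genes, Doc2b and Baiap3 were joined by Unc13c, a Munc13 priming factor, at 1.29, 1.31 and 1.94 FPKM in C_W and 5.103, 6.18 and 10.6 FPKM in MS_W (log2FC 1.68, SE 0.39, adjusted p = 0.243), and Sv2c, a vesicle glycoprotein of basal ganglia neurons, at 4.94, 3.03 and 3.45 FPKM in C_W and 11.5, 14.8 and 13.7 FPKM in MS_W (log2FC 1.59, SE 0.45, adjusted p = 0.301). Syt7, a slow calcium sensor, fell, with 39.8, 47.9 and 12.3 FPKM in C_W and 10.1, 8.57 and 11.6 FPKM in MS_W (log2FC -1.44, SE 0.41, adjusted p = 0.306), although C_W70 lay near the stressed mice. In 16 of the 37 genes the stressed mice were all below the controls and in 5 they were all above (8.22% and 16.3% of all genes), and Doc2a, the paralog of Doc2b, was at 11.999, 14.3 and 14.1 FPKM in C_W and 9.34, 7.68 and 4.09 FPKM in MS_W (log2FC -0.91, SE 0.39, adjusted p = 0.461), under the fold criterion. Of the 37 genes 10.8% rose and 2.7% fell, against 2.5% and 2.1% of all genes. In 27 of the 37 genes the log2FC was below 0, and its median was -0.11.

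Imprinted genes, which are expressed from 1 parental copy and several of which are known from the hypothalamus, rose in 6 of 24 cases (25.0%, against 2.5% of all genes) and fell in none, with a median log2FC of 0.42. Peg10, a retrotransposon-derived gene expressed from the paternal copy, was at 2.38, 1.93 and 2.59 FPKM in C_W and 12.4, 13.8 and 9.52 FPKM in MS_W (log2FC 1.96, SE 0.27, adjusted p = 0.0606). Magel2, a Prader-Willi region gene of hypothalamic neurons, was at 0.164, 0.179 and 0.285 FPKM in C_W and 2.49, 2.53 and 1.08 FPKM in MS_W (log2FC 1.29, SE 0.22, adjusted p = 0.112). Zim1, a zinc finger gene next to Peg3, was at 0.224, 0.263 and 0.379 FPKM in C_W and 1.84, 1.22 and 1.38 FPKM in MS_W (log2FC 0.94, SE 0.16, adjusted p = 0.121). Together with Dlk1, these showed no overlap of the groups and kept their calls without any 1 library. Nnat, neuronatin, was at 20.8, 8.94 and 8.37 FPKM in C_W and 63.4, 35.9 and 21.4 FPKM in MS_W (log2FC 1.57, SE 0.59, adjusted p = 0.411), with the highest control just under the lowest stressed mouse, and lost the call without MS_W31 (log2FC 1.18), C_W64 (log2FC 1.40) or C_W70 (log2FC 1.35). Peg3 itself was at 15.8, 20.2 and 18.5 FPKM in C_W and 28.5, 23.2 and 31.1 FPKM in MS_W (log2FC 0.57, SE 0.15, adjusted p = 0.278), all above the controls but under the fold criterion, and Meg3, the maternal noncoding partner of Dlk1, was at 71.4, 98.6 and 115 FPKM in C_W and 106, 80.4 and 60.9 FPKM in MS_W (adjusted p = 0.769). In 13 of the 24 genes all stressed mice lay above all controls, against 16.3% of all genes. The list kept 6 genes that rose without C_O72 and MS_W95.

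Extracellular matrix genes rose in 6 of 43 cases (13.95%, against 2.5% of all genes) and fell in 2 (4.65%, against 2.1%), and these 8 calls became 5 without C_W70. Sparc, a matricellular protein of astrocytes and vessels, was the most abundant, with 43.03, 32.4 and 32.9 FPKM in C_W and 115, 97.6 and 316 FPKM in MS_W (log2FC 2.06, SE 0.72, adjusted p = 0.371), where the high value was that of MS_W95 and the call was lost without it (log2FC 1.54), although MS_W31 and MS_W75 also lay above every control. Lamb1, a laminin chain of basement membranes, was at 1.05, 1.05 and 1.04 FPKM in C_W and 1.995, 2.21 and 2.25 FPKM in MS_W (log2FC 0.62, SE 0.11, adjusted p = 0.137), with almost equal controls. All stressed mice were near a doubling of the control level, but the fold of Lamb1 fell under the criterion after quantile normalization or centring. Col5a1 and Col12a1, collagens that regulate or decorate fibrils, fell, Col5a1 being at 1.04, 1.71 and 1.81 FPKM in C_W and 0.685, 0.525 and 0.5304 FPKM in MS_W (log2FC -0.66, SE 0.20, adjusted p = 0.326) and Col12a1 at 0.924, 1.04 and 1.17 FPKM in C_W and 0.502, 0.4395 and 0.554 FPKM in MS_W (log2FC -0.45, SE 0.12, adjusted p = 0.286), and without MS_W75 or C_W70 Col12a1 was under the fold criterion. In the circadian list 3 of 19 genes fell (15.8%, against 2.1% of all genes) and 0 rose. Hlf, an output factor of the clock, was at 40.04, 23.8 and 41.2 FPKM in C_W and 13.7, 20.1 and 11.4 FPKM in MS_W (log2FC -1.16, SE 0.31, adjusted p = 0.281). Bhlhe40, a repressor that answers to activity and light, was at 37.7, 39.4 and 46.4 FPKM in C_W and 22.1, 19.2 and 19.4 FPKM in MS_W (log2FC -0.99, SE 0.28, adjusted p = 0.303), with no overlap in either. Bhlhe40 was under the fold criterion without MS_W75, MS_W95 or C_W70, and the third gene, Rorb, also belongs to the cortical list. The core clock genes Clock (log2FC 0.091, adjusted p = 0.825), Arntl (log2FC 0.036, adjusted p = 0.954) and Per1 (log2FC -0.43, adjusted p = 0.562) were not called.

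With all libraries the lipid metabolism lists had no call and the inflammation and adult neurogenesis lists had 1 each. Among inflammation genes 6.25% rose (2.5% of all genes), and among neurogenesis genes 9.09% fell (2.1% of all genes). None of the 40 sphingolipid and none of the 48 glycerophospholipid metabolism genes tested was called, against 4.59% of all genes, and their median log2FC were 0.075 and 0.05, with the sign of both turning under centring. Sptlc1 and Sptlc2, subunits of serine palmitoyltransferase, which opens sphingolipid synthesis, were at 7.98, 8.13 and 7.56 FPKM in C_W and 7.81, 8.39 and 9.07 FPKM in MS_W and at 3.89, 4.07 and 4.24 FPKM in C_W and 4.43, 4.63 and 5.17 FPKM in MS_W. The sphingolipid genes had no call without any 1 library either, while 1 glycerophospholipid gene was called without C_W1, MS_W75 or MS_W95, with centred libraries and after quantile normalization. Of 16 inflammation genes Il1a, interleukin-1 alpha, rose at 0.177, 0.109 and 0.119 FPKM in C_W and 0.554, 0.638 and 0.163 FPKM in MS_W (log2FC 0.34, SE 0.11, adjusted p = 0.357), with MS_W95 within the control range and no call without MS_W75 (log2FC 0.24), and Tnf, named after its values were seen, was listed at 0.0001 in all 6 libraries. Of 11 adult neurogenesis genes Neurog2, a proneural factor, fell at under 0.3 FPKM (log2FC -0.15, SE 0.068, adjusted p = 0.4704) and lost the call without most single libraries (8 of the 12), and Dcx, the marker of young neurons, was at 4.25, 4.77 and 2.34 FPKM in C_W and 5.32, 4.19 and 0.779 FPKM in MS_W (adjusted p = 0.852). Over all 40 lists, 90 of the 645 tested genes were DEGs (13.95%), and the lists were written with earlier results of these data known.

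Leaving out C_O72 and MS_W95 left 2 stressed mice and 3 controls, and the number of DEGs was 1242 (5.81%), 747 higher (3.49%) and 495 lower (2.31%), among them 386 of the 534 and 313 of the 449 above. The limma adjusted p was under 0.05 for 246 genes (1.15%), 220 higher and 26 lower, and for 138 of the 220 and 22 of the 26 MS_W95, which this fit did not use, also lay beyond every control on the same side. Of all tested genes MS_W95 lay above every control in 46.3% and below in 27.6%, and the controls were those of the fit. The largest changes among them with no overlap were higher for Avp, Oxt, Drd2, Adora2a, Ecel1 and Baiap3, with log2FC from 3.20 (Baiap3) to 5.31 (Avp) and limma adjusted p from 0.00327 (Ecel1) to 0.0337 (Drd2). Lower were Zbtb7a, Adra1d, Slc17a7, Ighg2c, Npnt and A830009L08Rik, with log2FC from -2.01 (Zbtb7a) to -1.18 (A830009L08Rik) and limma adjusted p from 0.0344 (Slc17a7) to 0.0461 (A830009L08Rik). Npnt, the matrix protein nephronectin, was at 6.42, 6.88 and 7.73 FPKM in C_W and 2.29, 2.74 and 2.09 FPKM in MS_W (log2FC -1.25, SE 0.24, adjusted p = 0.167), so MS_W95 lay with the other stressed mice. Zbtb7a, a zinc finger repressor, was at 7.63, 14.6 and 14.9 FPKM in C_W and 2.18, 2.22 and 14.5 FPKM in MS_W (adjusted p = 0.4804 with all libraries), so MS_W95 was at the control level, and the gene was not called with it. Ighg2c, the constant region of immunoglobulin G2c, was at 4.27, 4.42 and 3.12 FPKM in C_W and 1.16, 0.829 and 0.132 FPKM in MS_W (log2FC -1.57, SE 0.46, adjusted p = 0.306), with every stressed mouse below every control.

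Whether the stress difference on water differed from that on krill oil was asked with the interaction term. It uses all 12 libraries and sets the difference described above against that of the 6 krill oil libraries. No gene passed (limma adjusted p at least 0.106), 1546 genes (7.23%) had an unadjusted p under 0.05, DESeq2 on the estimated counts called 151 genes and edgeR 0. For Doc2b the krill oil groups were at 3.91, 7.72 and 6.07 FPKM in C_O and 7.07, 6.59 and 7.25 FPKM in MS_O, and the interaction had a log2FC of 2.06 with a limma adjusted p of 0.199. The stressed mice on oil lay within the range of the unstressed ones on oil, and all of them lay between the C_W and MS_W values. Dlk1 was at 0.253, 0.221 and 4.08 FPKM in C_O and 0.603, 0.588 and 0.0823 FPKM in MS_O (interaction log2FC 3.61, adjusted p = 0.294), with C_O72 as the high value, and Arhgap36 was at 0.1105, 1.01 and 6.23 FPKM in C_O and 0.277, 0.4901 and 0.234 FPKM in MS_O (interaction log2FC 3.29, adjusted p = 0.454). Npnt was at 2.99, 3.24 and 1.398 FPKM in C_O and 5.28, 2.87 and 2.75 FPKM in MS_O (interaction log2FC -1.64, adjusted p = 0.402), and AW551984 was at 0.3695, 1.76 and 5.104 FPKM in C_O and 0.8298, 1.35 and 1.41 FPKM in MS_O (interaction log2FC 2.66, adjusted p = 0.455). In these 4 genes the limma adjusted p of the interaction was between 0.294 and 0.455. For the genes that fell most the values on oil were spread widely, and Trbc2 was at 23.7, 4.31 and 0.2697 FPKM in C_O and 23.1, 0.304 and 1.197 FPKM in MS_O (interaction log2FC -3.33, adjusted p = 0.665), Mgll at 42.5, 38.01 and 10.8 FPKM in C_O and 47.6, 23.5 and 8.66 FPKM in MS_O (interaction log2FC -2.04, adjusted p = 0.665) and Slc17a7 at 179, 314 and 28.1 FPKM in C_O and 164, 205 and 239 FPKM in MS_O (interaction log2FC -2.58, adjusted p = 0.665). Trbc2 was thus above 20 FPKM in C_O15, MS_O13 and the 3 C_W mice and below 5 FPKM in the other 7 of the 12 libraries. Myl4 divided likewise, with 6.84 and 6.93 FPKM in C_O15 and MS_O13 and at most 2.79 FPKM in the other oil libraries. Slc17a7 did not, being higher in C_O30 than in C_O15. Estimated counts summed to 70097375 in C_O15 and 72601163 in MS_O13, within the C_W range, and to 50912906 to 61608502 in the other 7. The part of depth, or of another trait of these libraries, in this division was not tested.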

How the data were processed

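RNA from the brains of 12 mice, 3 of 8 per group in 4 groups, was sequenced as stranded poly(A) libraries, and the 6 libraries of the C_W and MS_W groups are described here. Per the labels and the submitters' processing notes, the authors trimmed reads with cutadapt 1.9, aligned them to mm10 with HISAT2 2.0.4 and assembled and quantified transcripts with StringTie 1.3.4d. The authors deposited 1 table with an FPKM value and an estimated count per gene and library; its FPKM values, with 0.0001 as the lowest, are normalized for transcript length and library size. The estimated counts in the deposited table are whole numbers that the authors derived from coverage and transcript length, so they are not reads counted per gene and served only for alternatives. How reads of near-identical gene copies were shared is not given in the sources used here.

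From the FPKM values, log2(FPKM + 1) was fitted with limma 3.58.1 (lmFit and eBayes with trend, R 4.3.3) over the 4 groups and 12 libraries, for the 21393 genes with a mean of at least 0.1 FPKM. DEGs met an unadjusted p under 0.05 and a group mean ratio above 2-fold, a gene was also scored by the Benjamini-Hochberg adjusted p, and the interaction was MS_W minus C_W less MS_O minus C_O. The fit was checked on simulated data. Named genes were those past the adjusted threshold, the 12 highest and 12 lowest DEGs by log2FC with a mean of at least 1 FPKM and no overlap, the 6 highest and 6 lowest of the genes past the adjusted threshold without C_O72 and MS_W95, and in each of 40 lists of markers and functional groups up to 5 DEGs by abundance and the first 3 genes. The comparison and the lists were chosen with earlier results of these data known. Alternatives were other pseudocounts (0.1 and 0.01), filters, scalings and library sets, limma with array weights or robust eBayes, edgeR 4.0.16 and DESeq2 1.42.0 on the estimated counts, and leaving out each library. The estimated counts summed to 51748181 to 75678721 per library over both groups and stand in for depth, and the 3 mice per group limit the precision. Promoters were RefSeq windows of GRCm38.p6. The values of some named list members are not reported here.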

Additional observations from a re-analysis of the deposited data

How the results depend on the processing

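The 983 DEGs became 366 with a mean of at least 1 FPKM, 1559 with no filter and 264 when the fold was the difference of mean log2(FPKM + 1), and they ranged from 746 (without C_W70) to 1205 (without C_O72) over the 12 left-out libraries. Among the other settings the counts lay between 941 (pseudocount 0.01) and 1382 (array weights).

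The 1 gene past a limma adjusted p of 0.05 became 5 with no filter, 121 with only the 6 libraries of both groups, 246 without C_O72 and MS_W95 and 824 with array weights, while DESeq2 called 389 and edgeR 1. Over the left-out libraries the number ran from 0 (without MS_W75, with 2183 genes under 0.05 before adjustment) to 101 (without C_O72). It was 58 without MS_W95, 25 without C_O15, 6 without C_W1, 3 without C_O30 or C_W70 and 2 without C_W64 or MS_O13.

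For the interaction, the 0 genes became 1 with no filter, 32 with array weights, 31 without C_O72 and MS_W95 and 151 with DESeq2, and 0 to 20 over the left-out libraries, with 20 without C_O15, 10 without C_O72, 8 without MS_W95, 5 without MS_O13, 3 without C_W1, 2 without C_W64 and 1 without C_W70, MS_O46 or MS_W31. It could not be fitted with only the 6 libraries. The cause of these differences was not tested.

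No named DEG changed its direction under any alternative run, and the medians of the glucocorticoid axis, neurotrophin, sphingolipid, glycerophospholipid and inflammation lists, all within 0.1 of 0, turned negative with centred libraries. With a mean of at least 1 FPKM the medians of the neuropeptide (-0.046) and monoamine (-0.20) receptor lists also turned negative, and without MS_W95 those of the interneuron, olfactory bulb, microglia, glutamate and GABA receptor lists turned positive and that of the choroid plexus list negative. Of 90 named DEGs, 52 kept the criteria without each of the 12 libraries in turn and 38 lost them in at least 1 case. Over all alternatives the calls of named genes stayed on their side of the criteria in 4109 cases, were lost in 179 and gained in 51. The counts of DEGs per list stayed within 1.5 times in 551 cases and moved further in 89, and the list medians moved by more than the replicate spread in 46 cases and by less in 594. On the estimated counts Fezf2, Gm11549 and Gm13304 were called by neither edgeR nor DESeq2, Gm13601, Gal and Arc by DESeq2 but not edgeR, and DESeq2 gave Dlk1 and Slc5a7 no p. No paired analysis was possible because the C_W and MS_W mice share no replicate number in the labels. Of the 983 DEGs, 1 passed adjustment, and 3 mice per group limit the precision.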

Other observations

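Nrgn, which was singled out after its values were seen, was at 1059, 901 and 859.8 FPKM in C_W and 403, 381 and 24.6 FPKM in MS_W. Every stressed mouse was below every control and the log2FC of -2.57 was lower than that of any tested gene other than Trbc2, but with an SE of 1.69 and a limma adjusted p of 0.592 the gene was no DEG, and MS_W95 was far below the other stressed mice.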
